A study of Mus musculus with 15 samples.

Results

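The comparison set D-gel@GSNP, a chiral hydrogel with what the code GSNP stands for, taken here as its load, against PBS, the buffer control, in cells of the mouse glioma line GL261. The groups were chosen by their labels alone and held 3 RNA sequencing libraries each, 6 of the 15 libraries of the series. Both groups were cells of wild-type (WT) genotype labelled Hoechst-CD133+, both received a cytokine cocktail, and both were collected on Day 6. The D-gel@GSNP cells were added to lyophilised gel and held on ice for 20 min before culture, while the labels name no ice step for PBS, so gel, load and ice step cannot be told apart. Fresh medium was given to both on days 2 and 4. The labels do not spell out GSNP, name the cytokines or say whether replicates were separate cultures, so p-values measure the spread between these libraries, which may be technical. The other 9 libraries are 3 each of untreated non-SP cells (outside the side population that pumps out the dye Hoechst, and called Luci+ in the design text), of L-gel@GSNP and of D-gel@NP. L-gel@GSNP differs from D-gel@GSNP in the letter for the gel, and D-gel@NP in the code of the load. All groups are cells of 1 established line.

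CD133, the product of Prom1, and export of Hoechst by ABC transporters are used to enrich tumour cultures for stem-like cells. Cells enter division when E2F factors switch on the genes of DNA replication, and FOXM1 and B-MYB with their partners then switch on the genes of mitosis, while the tumour suppressor p53 holds division back through the inhibitor p21. Nutrient shortage and stress act through other sensors, among them ATF4 for amino acids, SREBP for cholesterol, TFEB for the lysosome and HIF for oxygen, each with a known set of target genes.

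Total counts were 44.8, 55 and 44.5 M in D-gel@GSNP and 38.5, 42.7 and 39.2 M in PBS. Library 3 of PBS stood apart from the other PBS libraries in some genes, among them Col1a1 and Lars2, whose values without it are given below. Without it the log2 differences, D-gel@GSNP minus PBS, of Lcn2, Vcan and Acta2 moved from -1.31, -0.27 and 0.4 to -0.73, 0.45 and 1.09. Across the genes tested, the Euclidean distance of log2 (CPM + 0.5) between a D-gel@GSNP and a PBS library was 74.3 to 82, against 30.1 to 31.5 within D-gel@GSNP and 33.1 to 37.7 within PBS. The D-gel@GSNP libraries lay 31.6 to 35.3 from the non-SP libraries, close to their distance from each other, although their labels give another cell fraction and treatment. Each result therefore rests on libraries that resemble those of untreated non-SP cells, and an effect of the treatment, a change of cell fraction, a wrong label and shared material cannot be told apart from these data. Prom1 had 8 counts in D-gel@GSNP as a whole, 19 in PBS, 2 in non-SP, 35 in L-gel@GSNP and 10 in D-gel@NP, too few to be tested. Its mRNA was thus nearly absent in the groups labelled CD133+ too. Whether the cells carried the protein, and so whether the label holds, could not be checked.

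Levels are in CPM (counts divided by the TMM-scaled library total in M), for libraries 1, 2 and 3 in that order or as mean ± SD (n = 3). A difference is the log2 difference of D-gel@GSNP minus PBS with its SE, fitted with edgeR's quasi-likelihood test, and a gene was called higher or lower at a Benjamini-Hochberg adjusted p under 0.05 over all tested genes. A fold is the same fitted difference as a ratio, is given for genes that were called, and is written after rose or fell; a list's median is that of the log2 differences of its tested members. Of 17497 genes tested, 4802 were higher (27.4%) and 4819 lower (27.5%), with a median difference of -0.02. Changes of at least 2-fold were less evenly split, at 584 higher (3.34%) and 1638 lower (9.36%). At 4-fold the numbers were 80 and 626, and at 8-fold 12 and 276. The CPM of the 3 libraries did not overlap between the groups for 61% of tested genes. The gene lists below were chosen with earlier results of these data known. A list's share set against that of all genes is therefore no independent test.

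The split depended on the level of the gene. Among 4919 genes with a mean under 1 CPM, 249 were higher and 878 lower, and 821 of the latter changed at least 2-fold. Both calls were rarer there than among all tested genes, at 27.4% higher and 27.5% lower. Among 2484 genes at 100 CPM or more, 1291 were higher and 667 lower, and 55 and 75 of these changed at least 2-fold. Of 741 long intergenic RNAs, 79 were higher and 162 lower, and of 616 antisense genes 33 and 91. Both classes were called less often in either direction than all tested genes. Since the strand setting of the counting is not given in the sources used here, reads of an antisense gene and of its partner cannot be told apart. Processed pseudogenes went the other way, with 234 of 1359 higher and 80 lower, and these share reads with their parent genes. Their calls, too, were rarer in either direction than among all tested genes.

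**Figure D1:**
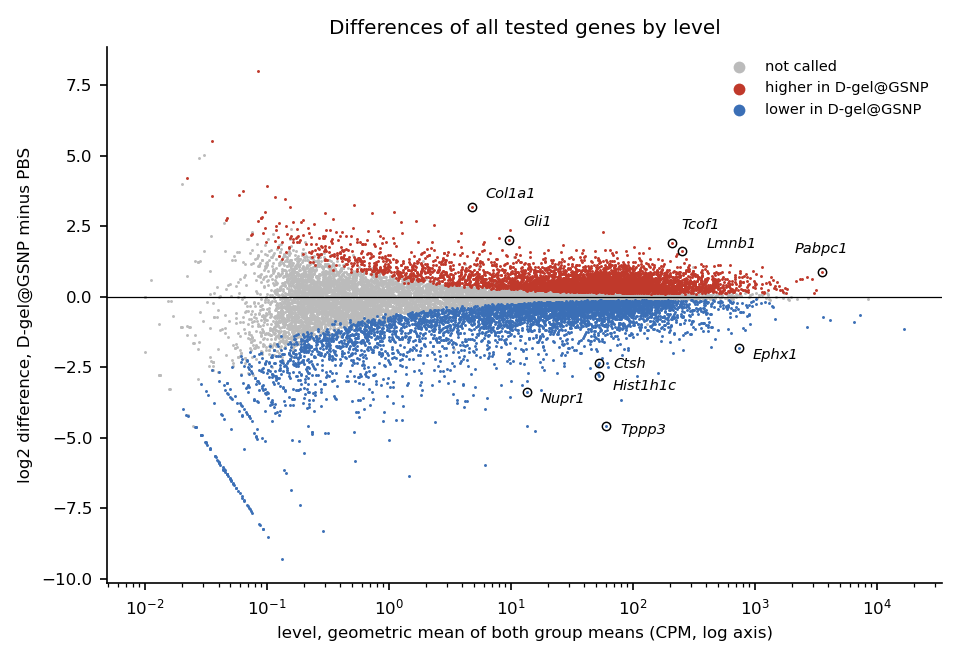
Log2 difference, D-gel@GSNP minus PBS, of every tested gene (vertical axis) against its level in CPM (horizontal log axis, geometric mean of both group means, with means under 0.01 CPM set to 0.01). Red points are genes called higher, blue points genes called lower, grey points the others, and rings mark 10 genes by name; the large falls reach further from 0 than the large rises.

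**Figure D2:**
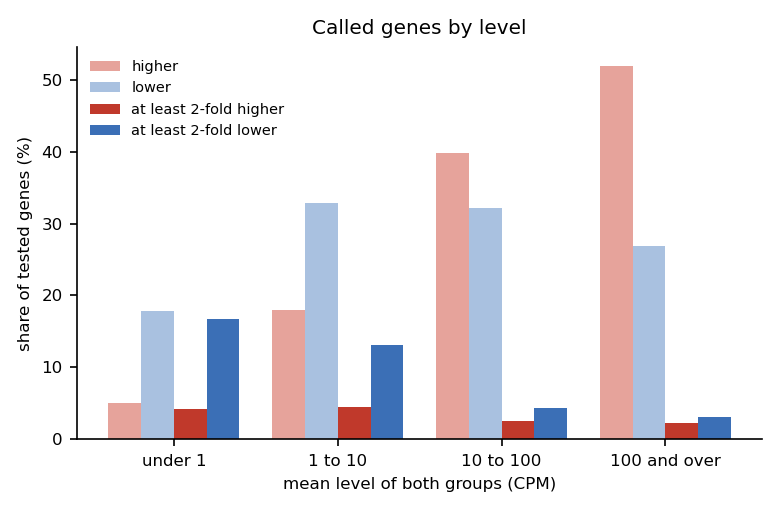
Share of tested genes called higher or lower (pale bars) and called with at least a 2-fold change (dark bars), in percent, by mean level of both groups in CPM. Lower calls outnumber higher calls under 10 CPM and higher calls outnumber lower ones from 10 CPM up, while 2-fold changes are mostly falls at every level.

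At the extremes, 32 genes had 30 counts or more in PBS as a whole and none in D-gel@GSNP, and 4 genes showed the opposite. Aoc1, a secreted diamine oxidase, had 217 counts in PBS as a whole, and Cybb, the catalytic subunit of the phagocyte NADPH oxidase, had 126. Igfbp2, which binds insulin-like growth factors, had 32 counts in D-gel@GSNP and none in PBS. These 3 genes were picked after their values were seen.

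**Figure D3:**
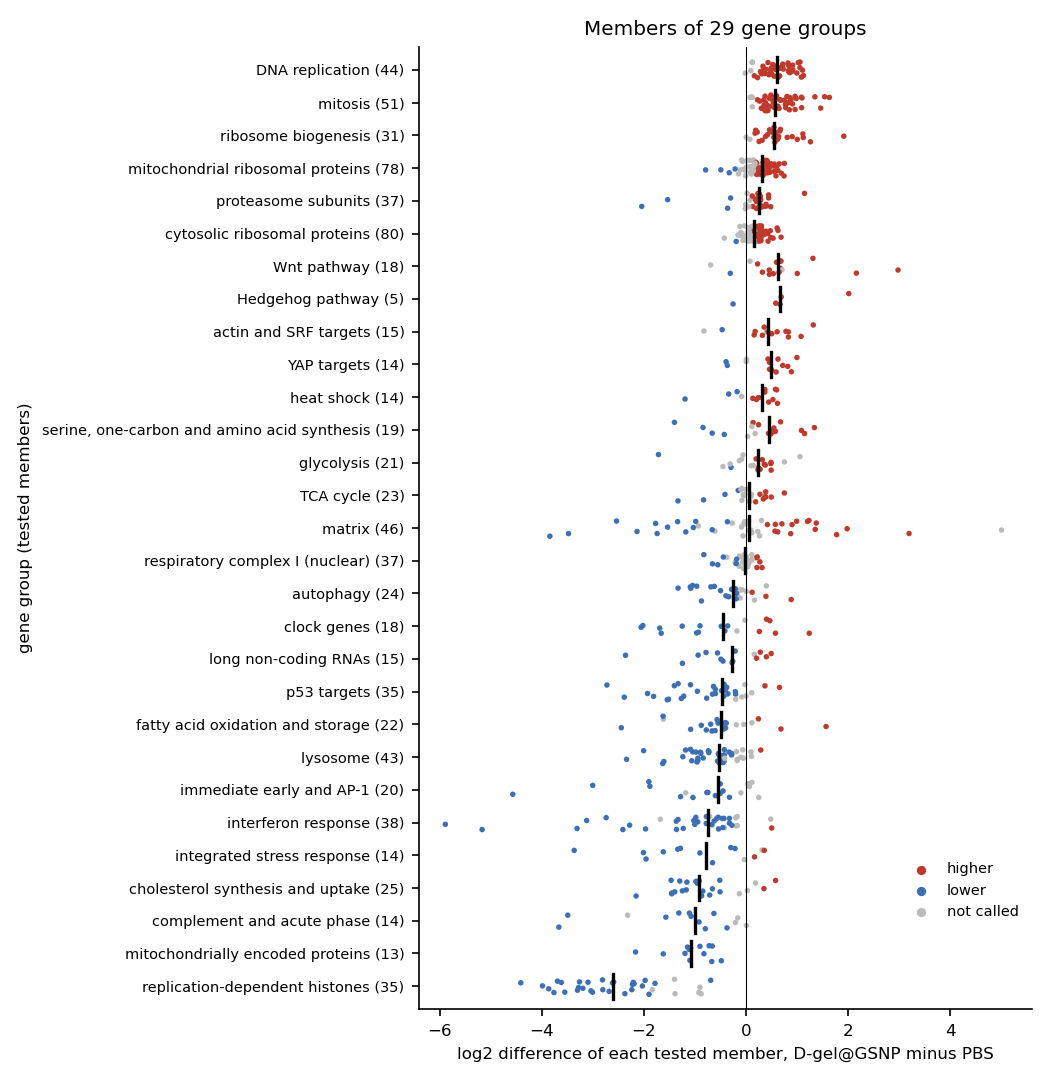
Log2 difference, D-gel@GSNP minus PBS, of each tested member of 29 gene groups; each dot is 1 gene, red if called higher, blue if called lower and grey otherwise, the bar is the group's median, and the number of tested members is in parentheses. Groups of replication, mitosis and ribosome biogenesis lie to the right of 0, and histones, mitochondrially encoded genes, complement and cholesterol genes lie to the left.

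Genes that copy DNA were higher in D-gel@GSNP. Of 44 tested genes of DNA replication 40 were higher and 0 lower, against 27.4% higher and 27.5% lower among all tested genes, with a median difference of 0.61, and 40 had groups that did not overlap, against 61% of all genes. Their summed level was 7790 ± 245 CPM against 4910 ± 26.4 CPM in PBS. All 6 tested genes that assemble and methylate new chromatin and all 7 that supply nucleotides were higher. Dnmt1, the methyltransferase that copies DNA methylation onto the new strand, was at 690.4, 658 and 661 CPM in D-gel@GSNP and at 284, 319 and 345 CPM in PBS. No D-gel@GSNP library came near the PBS range (log2 difference 1.08, SE 0.06, adjusted p = 2.31e-12). Uhrf1, which brings that enzyme to the replication fork, was at 421, 396 and 404 against 216, 233 and 235 CPM, again without overlap (log2 difference 0.84, SE 0.06, adjusted p = 1.05e-10). Rfc5, a subunit of the clamp loader, was at 136, 130 and 138 against 58.9, 61.5 and 64.7 CPM (log2 difference 1.13, SE 0.05, adjusted p = 1.41e-13) and Pold1, the catalytic subunit of polymerase delta, rose 2.15-fold. The helicase subunit Mcm5 rose 1.78-fold, and Rrm2 and Tyms, which make deoxynucleotides, rose 1.61-fold and 1.65-fold. Pcna, the sliding clamp itself, did not pass the test, at 252 ± 6.49 against 233 ± 20.0 CPM (log2 difference 0.12, adjusted p = 0.111; 95% interval -0.01 to 0.25).

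Mitotic genes were higher to a like degree. Of 51 tested genes 47 were higher and 0 lower, with a median of 0.56. All 16 cyclins, kinases and regulators were higher (median 0.86), as were 10 of 12 genes of the kinetochore and checkpoint (median 0.36). Mybl2, which encodes B-MYB, was at 202, 184 and 189 CPM in D-gel@GSNP and 57.5, 67.0 and 73.5 CPM in PBS. Foxm1 was at 226, 215 and 218 against 73.5, 89.9 and 94.96 CPM. Both regulators were more than 2-fold higher without overlap (Mybl2 log2 difference 1.54, SE 0.07, adjusted p = 1.16e-13; Foxm1 log2 difference 1.35, SE 0.08, adjusted p = 1.67e-12). Espl1, the protease that parts sister chromatids, rose 2.76-fold, and Cdc20, the activator of the anaphase-promoting complex, rose 2.12-fold. Ccnb1, Mki67 and Cdk1 rose 1.79-fold, 1.58-fold and 1.48-fold. The same genes were tested directly against the other gels, in comparisons that share the D-gel@GSNP libraries with this one: of the mitosis genes 50 were higher and 0 lower in D-gel@GSNP than in L-gel@GSNP, and 48 were higher and 0 lower than in D-gel@NP. Over all tested genes these shares were 30.5% higher and 31.3% lower (61.8% in all) against L-gel@GSNP, and 28.8% and 29.6% (58.4% in all) against D-gel@NP. No list was tested against non-SP, where the mitosis genes summed to 9420 ± 71.6 CPM, against 9300 ± 203 CPM in D-gel@GSNP. Replication genes summed to 7420 ± 41.7 CPM in non-SP, against 7790 ± 245 CPM in D-gel@GSNP.

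Promoters of 6 members of 5 groups are shown because these groups are known for a shared promoter motif. Each line gives 80 bases from the 250 bases before the gene's start in RefSeq on build GRCm38.p6, 5′ to 3′ on the gene's strand, with the motif in capitals. Espl1 and Cdc20 hold the cell cycle homology region TTTGAA of mitotic genes, Uhrf1 an E2F motif, Hmgcs1 the sterol response element TCACNCCAC, Ctsd the E-box of lysosomal genes and Ifit1 the interferon-stimulated response element, here read from the other strand. The 6 genes were chosen among called members with the largest differences that hold the motif in this window.
Espl1 (chr15:102296202-102296281, + strand): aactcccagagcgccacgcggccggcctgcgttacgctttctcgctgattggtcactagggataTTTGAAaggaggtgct
Cdc20 (chr4:118437346-118437425, - strand): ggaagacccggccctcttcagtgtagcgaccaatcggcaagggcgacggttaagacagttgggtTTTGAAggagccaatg
Uhrf1 (chr17:56304066-56304145, + strand): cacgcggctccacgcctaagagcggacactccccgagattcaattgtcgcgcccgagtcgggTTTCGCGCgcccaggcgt
Hmgcs1 (chr13:119690153-119690232, + strand): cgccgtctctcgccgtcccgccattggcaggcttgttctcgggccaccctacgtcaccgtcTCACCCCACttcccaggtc
Ctsd (chr7:142387909-142387988, - strand): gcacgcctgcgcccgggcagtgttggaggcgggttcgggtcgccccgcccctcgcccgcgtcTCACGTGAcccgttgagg
Ifit1 (chr19:34640744-34640823, + strand): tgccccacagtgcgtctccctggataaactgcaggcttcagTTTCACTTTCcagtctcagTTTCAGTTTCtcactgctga

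TTTGAA was found on either strand in 14 of 43 mitosis genes with a promoter in the table (32.6%), against 18.3% of all 27025 genes, and CCAAT, which binds the factor NF-Y, in 28 (65.1%), against 37.5%. An E2F motif (TTTCCCGC, TTTGGCGC, TTTCGCGC or TTTGCCGC) was found in 11 of 36 replication genes (30.6%), against 2.2%. The E-box (TCACGTGA or TCACGTGG) was in 8 of 35 lysosome genes (22.9%, against 2.3%), the interferon element in 13 of 27 interferon genes (48.1%, against 3.5%) and the sterol element in 1 of 17 cholesterol genes (5.9%, against 1.2%). These are matches of letters, not sites of binding.

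Regulators of entry into the cycle were mixed. Of 14 cyclins, kinases and E2F factors 12 were higher and 1 lower, and of 9 inhibitors and pocket proteins 2 were higher and 4 lower. E2f8, a repressor that follows E2F activity, was at 123, 111 and 111 against 34.4, 37.8 and 44.1 CPM, and E2f7 was at 67.7, 63.5 and 64.4 against 18.3, 23.1 and 26.1 CPM. Both were higher in every D-gel@GSNP library, 2.96-fold and 2.89-fold. Skp2, which marks the inhibitor p27 for destruction, rose 2.57-fold, while the p27 gene Cdkn1b was at 68.7 ± 1.63 against 69.9 ± 2.04 CPM (log2 difference -0.03, adjusted p = 0.744). Ccnd1, the cyclin that answers growth factors, fell 1.29-fold, Cdkn2b, which encodes p15, 1.83-fold and the pocket protein gene Rb1 1.46-fold.

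Chromatin proteins of dividing cells and DNA repair genes were mostly higher too. Of 13 such chromatin genes 12 were higher and 1 lower (median 0.61). Lmnb1, which builds the nuclear lamina and is known to be lost in senescent cells, was at 443, 443 and 442 CPM against 126, 145 and 158 CPM. Its D-gel@GSNP libraries were nearly equal and 3.09-fold above PBS (log2 difference 1.63, SE 0.06, adjusted p = 2.85e-15). The chromatin proteins Hmgb2 and Hmga1 rose 2.15-fold and 1.89-fold, and the exception was Hmga2, which fell 1.26-fold. Of 29 repair genes 20 were higher and 4 lower (median 0.41). Ung, which cuts uracil out of DNA, rose 2.79-fold, the fork protein Timeless 2.02-fold and Parp1, a sensor of strand breaks, 1.98-fold. Brca1 and the damage kinase Atm fell 1.10-fold and 1.27-fold.

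Histone genes went the other way. Counts were given for 59 replication-dependent histone genes, of which 35 were tested; of these 0 were higher and 29 lower, with a median of -2.61, and 28 fell at least 2-fold, against 9.36% of all genes. Their summed level was 49.8 ± 3.61 CPM in D-gel@GSNP, 277 ± 15.4 CPM in PBS and 40.1 ± 0.934 CPM in non-SP. The same list was also lower in the direct tests: 0 were higher and 24 lower in D-gel@GSNP than in L-gel@GSNP, and 0 were higher and 29 lower than in D-gel@NP. Each family took part: 3 of 4 linker H1 genes, 2 of 2 H2A, 13 of 14 H2B, 5 of 7 H3 and 6 of 8 H4 genes were lower. Hist1h2bc was at 3.05, 3.05 and 2.53 CPM in D-gel@GSNP and 37.5, 33.9 and 29.8 CPM in PBS (log2 difference -3.55, SE 0.13, adjusted p = 1.31e-15). Hist1h1d, a linker histone, was at 1.02, 0.618 and 1.33 against 14.6, 13.8 and 11.3 CPM (log2 difference -3.76, SE 0.19, adjusted p = 3.97e-13). In both genes every D-gel@GSNP library lay far under every PBS library.

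These mRNAs are unusual in that most end in a short stem-loop and not in a poly(A) tail, so a library made from poly(A) RNA sees them only in part; the labels do not say whether poly(A) RNA was selected. The stem-loop of 6 members is shown from GENCODE M21 transcripts (GRCm38), with the bases that match the histone stem-loop consensus in capitals and 5 bases on either side.
Hist1h1c: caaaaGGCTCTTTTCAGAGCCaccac
Hist1h1d: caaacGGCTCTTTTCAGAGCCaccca
Hist1h2be: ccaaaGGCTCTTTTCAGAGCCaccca
Hist1h2ac: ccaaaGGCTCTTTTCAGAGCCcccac
Hist1h3e: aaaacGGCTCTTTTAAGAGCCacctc
Hist1h4i: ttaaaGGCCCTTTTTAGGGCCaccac

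The pattern was present in an annotated transcript of 38 of the 59 genes (64.4%) and of 34 of 21818 other protein-coding genes (0.16%). Of 23 tested histone genes with the pattern 20 were lower (median -2.61), and of 12 without it in the annotation 9 were lower (median -2.43). Histone genes are near-identical copies, so reads may be split among them. Of the genes for histone variants, H2afz was at 480.4 ± 21.9 against 314 ± 18.5 CPM (log2 difference 0.61) and H2afx at 72.2 ± 3.68 against 42.7 ± 1.66 CPM (log2 difference 0.76), and both rose. Both variants, and Hist1h1c among the stem-loops, were picked after their values were seen.

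Targets of p53 were lower. Of 35 tested 2 were higher and 27 lower, with a median of -0.48, against 27.5% of all genes lower. All 11 targets that promote cell death fell (median -0.60), as did 9 of 12 arrest genes. Fas, the death receptor, was at 2.70, 3.24 and 3.61 CPM in D-gel@GSNP and 16.4, 16.7 and 16.7 CPM in PBS. Btg2, an antiproliferative gene, was at 23.9, 29.99 and 24.01 against 102, 96.8 and 98.3 CPM. Both sets of values were far apart (Fas log2 difference -2.38, SE 0.12, adjusted p = 3.83e-13; Btg2 log2 difference -1.93, SE 0.09, adjusted p = 3.48e-14). Ccng1 fell 2.86-fold, the stress hormone gene Gdf15 2.91-fold and Mdm2, which encodes the ligase that destroys p53, 2.12-fold. Trp53 itself was higher, at 219.8, 221 and 214 against 127, 142 and 146 CPM (log2 difference 0.66, SE 0.06, adjusted p = 3.48e-09), and the bypass polymerase gene Polh rose 1.29-fold. Of 21 other regulators of apoptosis 4 were higher and 10 lower. Bak1, a pore-forming death protein, and Bcl2, which blocks such proteins, rose 1.82-fold and 1.75-fold, and Cflar, an inhibitor of death receptor signalling, fell 1.61-fold.

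Genes that build ribosomes were higher. Of 31 tested 29 were higher and 0 lower, with a median of 0.55. Tcof1, which encodes treacle, a factor for transcription of ribosomal DNA, was at 410, 401 and 399 CPM in D-gel@GSNP and 92.8, 115 and 113 CPM in PBS. The groups lay 3.77-fold apart (log2 difference 1.91, SE 0.08, adjusted p = 9.30e-15), and Tcof1 was also higher than in L-gel@GSNP (log2 difference 1.85, adjusted p = 7.08e-15) and D-gel@NP (log2 difference 1.59, adjusted p = 9.73e-14). Tcof1 was not tested against non-SP, where the list summed to 10300 ± 72.7 CPM, against 10600 ± 330 CPM in D-gel@GSNP. Polr1b, a subunit of RNA polymerase I, rose 2.40-fold and the nucleolar proteins Noc2l and Ncl 2.18-fold and 1.48-fold. Npm1, the abundant nucleolar protein nucleophosmin, rose 1.304-fold over PBS, but in the direct tests its log2 difference from L-gel@GSNP was 0.03 (adjusted p = 0.705) and from D-gel@NP 0.00 (adjusted p = 0.950).

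Ribosomal proteins had a median nearer 0. Of 80 cytosolic ribosomal protein genes 41 were higher and 1 lower (median 0.16), and with upper-quartile scaling the counts were 29 and 3. Rps2 was at 3366, 3479 and 3380 against 2198, 2115 and 2036 CPM (log2 difference 0.69, SE 0.05, adjusted p = 2.40e-11), and the single fall was Rpl23, 1.14-fold. Against the other gels the direction of the list turned: 9 were higher and 43 lower in D-gel@GSNP than in L-gel@GSNP, and 10 were higher and 41 lower than in D-gel@NP. Pabpc1, the poly(A)-binding protein, had the largest rise in CPM among the called genes that were ranked, with symbols of predicted genes left out. It was at 4945, 4684 and 4611 against 2399, 2677 and 2766 CPM. Every D-gel@GSNP library lay far above every PBS library (log2 difference 0.86, SE 0.05, adjusted p = 3.34e-12). The scaffold gene Eif4g1 and the mRNA-packing protein gene Ybx1 rose 1.88-fold and 1.76-fold. Of 37 aminoacyl-tRNA synthetases, which load tRNAs, 22 were higher and 4 lower, led by Vars at 308, 319 and 312 against 118, 143 and 127 CPM (log2 difference 1.28, SE 0.07, adjusted p = 3.47e-13). Cars, for cysteine, fell 1.32-fold. Lars2, for leucine in mitochondria, was at 93.6, 273 and 259.6 CPM in D-gel@GSNP and 89.6, 109 and 413 CPM in PBS, where D-gel@GSNP 1 was low and PBS 3 high, and was not called (log2 difference 0.04, adjusted p = 0.947; log2 difference 1.08 without PBS 3).

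The integrated stress response, through which ATF4 answers amino acid shortage and misfolded protein, was lower in D-gel@GSNP than in PBS. Its genes summed to 483 ± 8.76 CPM in D-gel@GSNP, 688 ± 12.1 CPM in PBS and 457 ± 6.43 CPM in non-SP. Of 14 tested genes 2 were higher and 10 lower, with a median of -0.78; in the direct tests 1 was higher and 13 lower in D-gel@GSNP than in L-gel@GSNP, and 1 was higher and 13 lower than in D-gel@NP. Nupr1, a small stress-induced chromatin protein, was at 4.35, 3.56 and 4.76 CPM against 39.8, 44.1 and 45.7 CPM in PBS, and averaged 84.8 CPM in L-gel@GSNP and 114 CPM in D-gel@NP. It stood 10.3-fold lower than in PBS without overlap (log2 difference -3.36, SE 0.09, adjusted p = 2.32e-17). Trib3, which dampens the response, was at 2.54, 3.77 and 3.54 against 6.22, 8.09 and 10.7 CPM, with means of 63.2 CPM in L-gel@GSNP and 74.0 CPM in D-gel@NP. It fell 2.52-fold from PBS, and its log2 differences from the other gels were -4.26 (adjusted p = 5.84e-15) and -4.48 (adjusted p = 3.65e-15). The stress factor genes Atf3 and Ddit3 fell 4.02-fold and 3.07-fold, the glutathione-degrading Chac1 3.88-fold, and Atf4 mRNA, whose protein is mainly set by translation, 1.16-fold.

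Serine, one-carbon and amino acid synthesis genes, many of them known targets of ATF4, went up against PBS and down against the other gels. Of 19 tested 12 were higher and 4 lower (median 0.44), whereas 6 were higher and 10 lower in D-gel@GSNP than in L-gel@GSNP, and 4 were higher and 12 lower than in D-gel@NP. Shmt2, which makes glycine and one-carbon units in mitochondria, was at 266, 251 and 249 against 90.4, 99.005 and 113 CPM (log2 difference 1.34, SE 0.06, adjusted p = 8.25e-14). Mthfd2, which oxidises those one-carbon units, was at 64.5, 67.3 and 64.9 against 41.99, 39.4 and 41.6 CPM, 141 CPM in L-gel@GSNP and 208 CPM in D-gel@NP. The D-gel@GSNP libraries thus lay above PBS (log2 difference 0.68, SE 0.06, adjusted p = 6.93e-09) and under both other gels (log2 differences -1.10 and -1.66, adjusted p = 9.28e-13 and 2.24e-15). The proline genes Pycr1 and Aldh18a1 rose 2.22-fold and 2.12-fold over PBS, and asparagine synthetase (Asns) 1.19-fold. Gpt2, which makes alanine, fell 2.64-fold and the mitochondrial folate enzyme Aldh1l2 1.58-fold. Of 16 amino acid transporters 2 were higher and 10 lower: the glycine carrier Slc6a9 fell 2.80-fold and the cystine carrier Slc7a11 1.58-fold. Slc7a5, the large neutral amino acid carrier, was at 131, 120.4 and 125 against 21.3, 24.8 and 30.95 CPM, 4.89-fold higher (log2 difference 2.29, SE 0.09, adjusted p = 6.91e-15).

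**Figure D4:**
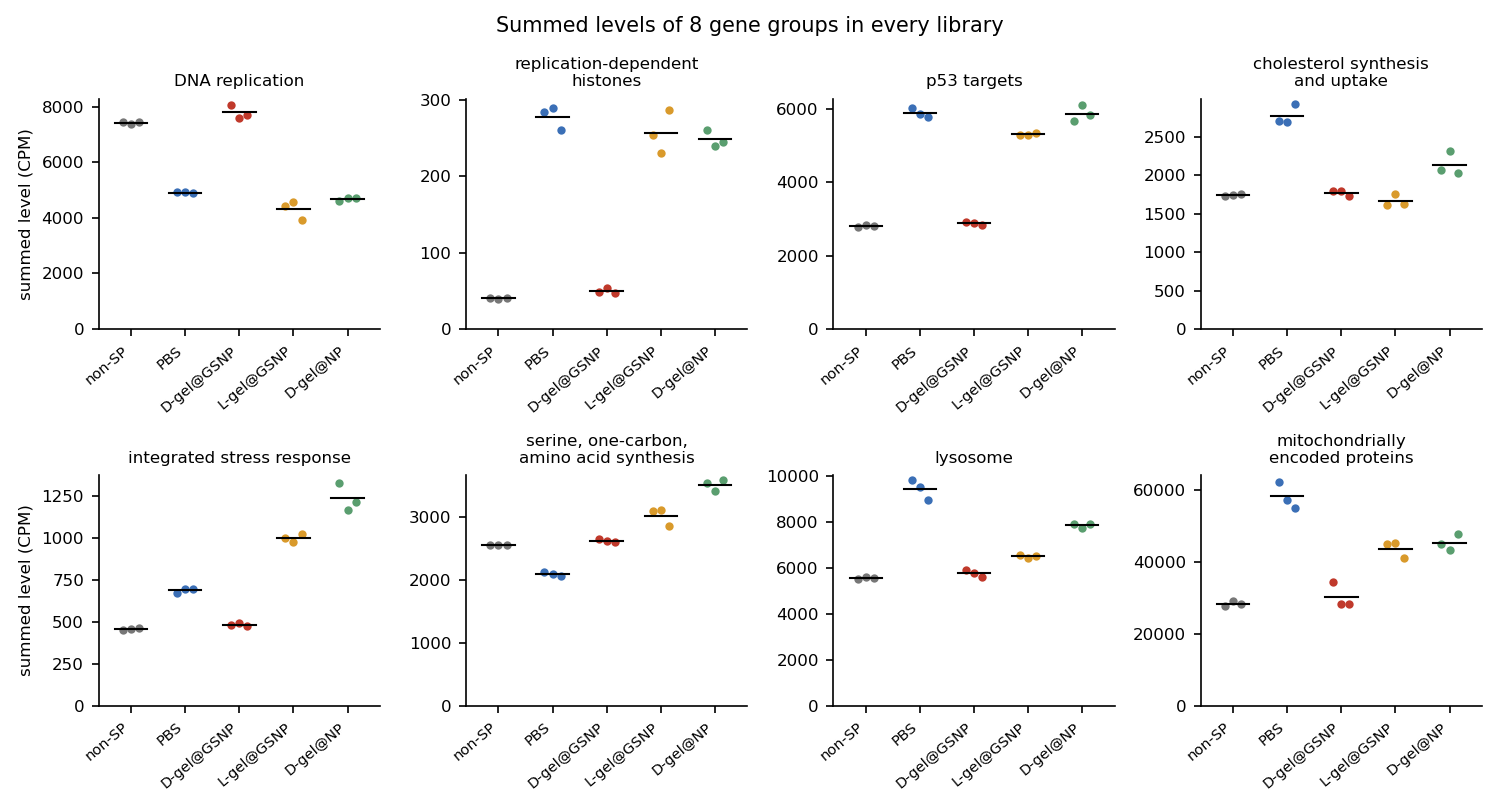
Summed level in CPM of 8 gene groups in every library (dots; black lines are means of 3 libraries) of the 5 groups of samples, with axes that start at 0. In each panel the D-gel@GSNP sums lie closer to those of non-SP than to those of PBS; histones are at 49.8 CPM against 277 CPM in PBS.

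All 13 mitochondrially encoded protein genes were lower in D-gel@GSNP, with a median of -1.09. mt-Co1, which encodes the core of cytochrome oxidase, was at 12364, 10685 and 10569 CPM against 26931, 24583 and 22803 CPM (log2 difference -1.14, SE 0.06, adjusted p = 3.34e-13), and mt-Co2 fell 2.29-fold. Mitochondrial genes took 3.00% ± 0.318 of counts in D-gel@GSNP, 5.97% ± 0.34 in PBS and 2.86% ± 0.0529 in non-SP. This share can move with RNA quality, and its part in the result was not tested; with these genes left out of the fit, 4951 genes were higher and 4674 lower. Nuclear genes for mitochondrial proteins differed by group. Of 78 mitochondrial ribosomal protein genes 54 were higher and 4 lower (median 0.32), among them Mrpl3 at 109, 107 and 111 against 62.3, 67.4 and 64.5 CPM (log2 difference 0.75, SE 0.05, adjusted p = 1.83e-11). Of 37 nuclear genes of complex I 5 were higher and 7 lower (2 and 11 with upper-quartile factors), and for 20 the 95% interval lay within 1.2-fold, against 9.92% of all genes. That last share covers genes of every level, 4919 of them with a mean under 1 CPM, and was not matched for level. Ndufa1 fell 1.77-fold. Of 20 nuclear genes of complexes III and IV 4 were higher and 6 lower (3 and 9 with upper-quartile factors; median -0.11), and Cyc1 and Uqcrc1 of complex III rose 1.69-fold and 1.68-fold. Of 17 nuclear ATP synthase genes 9 were higher and 2 lower. In the TCA cycle 8 of 23 genes were higher and 4 lower (7 and 8 with upper-quartile factors). These main shares were 34.8% and 17.4%, against 27.4% and 27.5% of all genes. Citrate synthase (Cs) rose 1.41-fold and Ogdh 1.68-fold, while Idh1, the cytosolic isocitrate dehydrogenase, was at 183 ± 6.94 against 462 ± 24.9 CPM (log2 difference -1.33).

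Lysosomal genes were lower. Of 43 tested 1 was higher and 33 lower, with a median of -0.53, and 9 of 10 proteases fell (median -1.16). Ctsh, a cathepsin, was at 22.2, 26.6 and 22.01 CPM against 124, 115 and 119.5 CPM in PBS, 5.05-fold lower without overlap (log2 difference -2.34, SE 0.08, adjusted p = 5.66e-16). The cathepsin genes Ctso and Ctsb fell 3.09-fold and 1.86-fold, Ctsd, whose promoter is printed above, fell 4.01-fold, and the single rise was Gusb, beta-glucuronidase (1.22-fold). In the direct tests 10 were higher and 22 lower in D-gel@GSNP than in L-gel@GSNP, and 6 were higher and 28 lower than in D-gel@NP. Of 24 autophagy genes 3 were higher and 15 lower. The cargo receptor Sqstm1 was at 317, 293 and 289 against 619, 644 and 653 CPM (log2 difference -1.09, SE 0.04, adjusted p = 9.30e-15), and Gabarapl1 and Map1lc3b, which coat the autophagosome, fell 2.51-fold and 2.06-fold. Tfeb, the regulator of lysosomal genes, was at 21.3, 22.1 and 21.3 against 11.6, 11.6 and 11.8 CPM, with every D-gel@GSNP library above PBS (log2 difference 0.89, SE 0.08, adjusted p = 2.76e-09).

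Cholesterol synthesis genes were lower than in PBS at nearly every step. Of 25 tested 2 were higher and 20 lower (median -0.92); all 11 genes of the sterol steps and 7 of 8 of the mevalonate steps fell. Hmgcs1, which makes HMG-CoA, was at 61.4, 60.3 and 63.4 CPM against 152, 137 and 166 CPM (log2 difference -1.297, SE 0.07, adjusted p = 3.34e-13). Tm7sf2, a sterol reductase, was at 2.28, 2.81 and 2.76 against 11.9, 11.04 and 11.997 CPM (log2 difference -2.15, SE 0.14, adjusted p = 2.73e-11). Both groups of values were separate, and Insig1, which holds SREBP back and is itself its target, fell 2.74-fold, and Sqle 1.97-fold. Scap, which escorts SREBP, rose 1.49-fold. The list did not go one way against L-gel@GSNP: 11 were higher and 9 lower in D-gel@GSNP than in L-gel@GSNP, and 4 were higher and 14 lower than in D-gel@NP.

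Abcg1, which exports cholesterol, fell 4.85-fold, with 5 of 11 genes of cholesterol efflux lower and 1 higher. Of 14 fatty acid synthesis genes 4 were higher and 6 lower: the desaturase genes Scd1 and Fads2 fell 2.104-fold and 2.21-fold, and Acaca, the first enzyme of the path, rose 1.53-fold. Of 22 genes of fatty acid oxidation and storage 3 were higher and 15 lower. Pdk4, which spares glucose when fat is burnt, was at 4.24, 4.65 and 4.11 against 12.3, 11.2 and 16.6 CPM (log2 difference -1.62, SE 0.15, adjusted p = 3.22e-09). Fabp5, a fatty acid carrier, went up, at 45.1, 45.3 and 43.1 CPM against 15.2, 14.8 and 15.1 CPM, with a tight spread in both groups (log2 difference 1.57, SE 0.09, adjusted p = 4.73e-12).

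Interferon-induced genes were lower. Of 38 tested 1 was higher and 29 lower (median -0.74), and of 27 effectors 0 were higher and 24 lower. In the direct tests 3 were higher and 26 lower in D-gel@GSNP than in L-gel@GSNP, and 1 was higher and 26 lower than in D-gel@NP. The list summed to 530 ± 16.9 CPM in D-gel@GSNP, 784 ± 23.9 CPM in PBS and 526 ± 12.6 CPM in non-SP. Gbp4, a guanylate-binding protein of cell defence, was at 2.12, 2.25 and 2.44 CPM against 7.88, 9.06 and 9.64 CPM (log2 difference -1.97, SE 0.14, adjusted p = 9.68e-11). The antiviral genes Oasl2 and Xaf1 each fell 2.57-fold. Ifit1, whose promoter is printed above, was under 1 CPM in every library, at 0, 0.0749 and 0.0919 against 0.493, 0.488 and 0.785 CPM (log2 difference -3.31, SE 0.69, adjusted p = 2.86e-04). Ifih1, a sensor of double-stranded RNA, was the 1 gene higher, 1.42-fold. Of 19 genes of MHC class I presentation 1 was higher and 12 lower: the peptide pump gene Tap1 fell 2.13-fold and the immunoproteasome gene Psmb8 2.90-fold. The class I chain gene H2-D1 was at 331, 337 and 326 against 326, 346 and 352 CPM and was not called (log2 difference -0.04, adjusted p = 0.457; interval -0.14 to 0.05).

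Chemokines and complement were lower as well. Of 18 chemokines and cytokines 2 were higher and 11 lower, and of 12 NF-kB subunits and feedback genes 4 were higher and 2 lower. Cxcl1, which draws neutrophils, was at 22.9, 24.4 and 19.6 CPM against 119, 119 and 121 CPM (log2 difference -2.42, SE 0.08, adjusted p = 1.24e-16). The monocyte chemokine gene Ccl2 fell 2.86-fold, Cxcl2 3.72-fold, Csf2 3.71-fold, and the subunit gene Nfkb1 rose 1.56-fold. Of 14 complement and acute phase genes 0 were higher and 10 lower (median -0.997). The protease gene C1s1 fell 2.97-fold and C3 2.16-fold. Steap4, a metalloreductase, was at 0.210, 1.12 and 0.230 against 4.20, 5.25 and 9.44 CPM, and D-gel@GSNP 2 was the highest of its group (log2 difference -3.49, SE 0.35, adjusted p = 1.43e-08; log2 difference -4.82 without it). Of 29 cytokine receptors and JAK-STAT genes 9 were higher and 10 lower (31.0% and 34.5%), near the 27.4% and 27.5% of all genes. Stat3, at 91.8 ± 2.52 against 79.995 ± 6.80 CPM, rose 1.15-fold.

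Macrophage and microglia markers were lower as a sum but did not all go one way. Their summed level was 15.1 ± 0.887 CPM in D-gel@GSNP and 74.9 ± 4.17 CPM in PBS. Among 10 tested, 5 were lower and 1 higher, against 27.5% lower and 27.4% higher of all genes. Each of these called markers changed at least 2-fold. Most of the sum was Csf1r, at 3.54, 2.47 and 2.34 against 23.9, 23.1 and 26.8 CPM, and Cd68, at 7.33, 8.02 and 7.19 against 45.2, 46.3 and 35.7 CPM. Neither marker's groups overlapped. Ptprc, the marker of all white blood cells, was at 0, 0.0375 and 0.0919 against 0.311, 0.651 and 0.405 CPM. Tmem119, Mrc1 and Aif1 were too low to be tested, with 18, 11 and 13 counts in D-gel@GSNP against 6, 3 and 9 in PBS. Tyrobp had no count in PBS, and C1qa, C1qb, C1qc and Trem2 were not analysed here. The labels name 1 established line and no other cells, and whether that line or other cells made these markers was not tested. In bulk RNA fewer cells of a type and less RNA per cell cannot be told apart. The part of any cells outside the line in the interferon, lysosome and complement results was not tested. Of 2 tested endothelial markers 0 were higher and 1 lower: Vwf, a clotting factor of vessel walls, was at 1.47, 1.09 and 1.13 against 14.3, 17.7 and 15.3 CPM (log2 difference -3.69, SE 0.16, adjusted p = 3.31e-14). Fibroblast and pericyte markers summed to 687 ± 11.7 against 1340 ± 40.4 CPM. Among 5 tested, 4 were lower and 1 higher (log2 difference 2.375), against 27.5% lower and 27.4% higher of all genes.

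Immediate early genes, which answer growth factors within minutes, were lower. Of 20 tested 0 were higher and 13 lower (median -0.55). Fos was at 3.28, 2.60 and 2.41 CPM in D-gel@GSNP against 62.3, 67.9 and 65.9 CPM in PBS. The groups lay 23.7-fold apart (log2 difference -4.57, SE 0.17, adjusted p = 1.76e-15). Fosb fell 8.004-fold, the phosphatase gene Dusp1 3.68-fold and Egr1 1.68-fold, whereas Junb was at 90.7 ± 5.65 against 87.0 ± 1.75 CPM (log2 difference 0.06, adjusted p = 0.487). Of 14 genes of ERK output and feedback 8 were higher and 3 lower: the inhibitor Spry1 and the factor Etv4 rose 2.09-fold and 1.84-fold, and Areg, a ligand of the EGF receptor, fell 5.52-fold. Egfr itself was at 28.2, 29.6 and 27.2 against 87.3, 85.2 and 74.1 CPM (log2 difference -1.54, SE 0.08, adjusted p = 3.22e-13). Of 21 receptor tyrosine kinases 10 were higher and 4 lower; Erbb2 rose 1.59-fold and Erbb3 fell 1.49-fold. Among secreted growth factors and their binding proteins 5 of 25 were higher and 8 lower (20.0% and 32.0%, against 27.4% and 27.5% of all genes). Igfbp4 was at 1607, 1681 and 1612 against 709, 813 and 841 CPM (log2 difference 1.05, SE 0.05, adjusted p = 1.22e-13), and Pdgfa fell 2.05-fold.

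Among 46 tested matrix genes 15 were higher and 13 lower (32.6% and 28.3%). These shares were near the 27.4% and 27.5% of all genes, with differences by kind. Of 19 glycoproteins and crosslinkers 10 were higher and 3 lower (median 0.58), of 14 collagens 4 were higher and 5 lower, and of 13 proteases and inhibitors 1 was higher and 5 lower. Col1a1, a chain of fibrillar collagen I, was at 14.5, 14.99 and 13.8 CPM in D-gel@GSNP and 0.571, 0.930 and 3.24 CPM in PBS. PBS 3 was highest in its group but still under every D-gel@GSNP library (log2 difference 3.19, SE 0.37, adjusted p = 1.45e-07; log2 difference 4.25 without PBS 3). Nid1, which links laminin to collagen in basement membranes, was at 191, 188 and 185 against 46.0, 49.5 and 69.6 CPM (log2 difference 1.77, SE 0.10, adjusted p = 9.77e-13). The crosslinker Loxl2 rose 3.95-fold, the basement membrane chains Lamc1 and Col4a1 1.87-fold and 1.83-fold, and Fn1 and Sparc 1.54-fold and 1.49-fold. Collagen VI went down: Col6a1 was at 18.6, 18.5 and 17.8 against 94.9, 105 and 118 CPM (log2 difference -2.53, SE 0.07, adjusted p = 5.06e-17) and Col6a3 fell 11.1-fold. Spp1, or osteopontin, fell 2.26-fold and the protease gene Mmp10 3.41-fold. Against the other gels more matrix genes were lower than higher: 12 were higher and 23 lower in D-gel@GSNP than in L-gel@GSNP, and 13 were higher and 17 lower than in D-gel@NP. All tested genes were 30.5% higher and 31.3% lower against L-gel@GSNP, and 28.8% and 29.6% against D-gel@NP.

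Integrin genes were mixed and actin genes mostly higher. Of 19 integrin and focal adhesion genes 8 were higher and 7 lower: the fibronectin receptor gene Itga5 rose 2.104-fold and zyxin (Zyx) 2.00-fold, and Itgb7 and Itga2 fell 3.36-fold and 2.31-fold. Of 15 actin genes and SRF targets 12 were higher and 1 lower (median 0.43). Actb was at 3649, 3662 and 3653 against 2294, 2375 and 2517 CPM (log2 difference 0.61, SE 0.05, adjusted p = 2.87e-10), Srf rose 1.78-fold and the actin-binding Cnn2 2.11-fold. Of 14 genes of the YAP pathway, which reads cell shape and stiffness, 10 were higher and 2 lower (median 0.48). Its DNA-binding partners Tead4 and Tead1 rose 2.00-fold and 1.85-fold, while the targets Ccn1 and Ccn2 went apart, with log2 differences of -0.39 and 0.50. Of these genes 5 were higher and 1 lower in D-gel@GSNP than in L-gel@GSNP, and 11 were higher and 1 lower than in D-gel@NP.

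Wnt and Hedgehog genes were mostly higher. Of 18 tested Wnt genes 14 were higher and 1 lower (median 0.62): the factor Tcf7 was at 86.8, 77.5 and 79.1 against 28.0, 33.8 and 36.2 CPM (log2 difference 1.31, SE 0.08, adjusted p = 5.55e-12), and the feedback genes Notum and Axin2 rose 2.01-fold and 1.25-fold. Ctnnb1, which encodes beta-catenin, was the 1 gene lower (1.24-fold). Of 5 Hedgehog genes 4 were higher and 1 lower. Gli1, both effector and target of the pathway, was at 18.9, 19.8 and 19.6 CPM in D-gel@GSNP, 4.33, 4.23 and 5.90 CPM in PBS, and averaged 2.07 CPM in L-gel@GSNP and 4.44 CPM in D-gel@NP. It was higher than in each of the 3 groups (log2 difference 2.01, SE 0.14, adjusted p = 5.44e-11; log2 differences 3.22 and 2.11 against the other gels, adjusted p = 4.26e-14 and 3.40e-11). Gli1 was not tested against non-SP, to which its D-gel@GSNP levels lay closer than to PBS. The receptors Ptch1 and Smo rose 1.59-fold and 1.61-fold, and the co-receptor Cdon fell 1.19-fold. Of 10 Notch genes 5 were higher and 0 lower. Of 25 TGF-beta and BMP genes 9 were higher and 9 lower (36.0% each, against 27.4% and 27.5% of all genes). There the inhibitory Smad6 rose 1.95-fold and the TGF-beta target Tgfbi fell 2.57-fold.

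**Figure D5:**
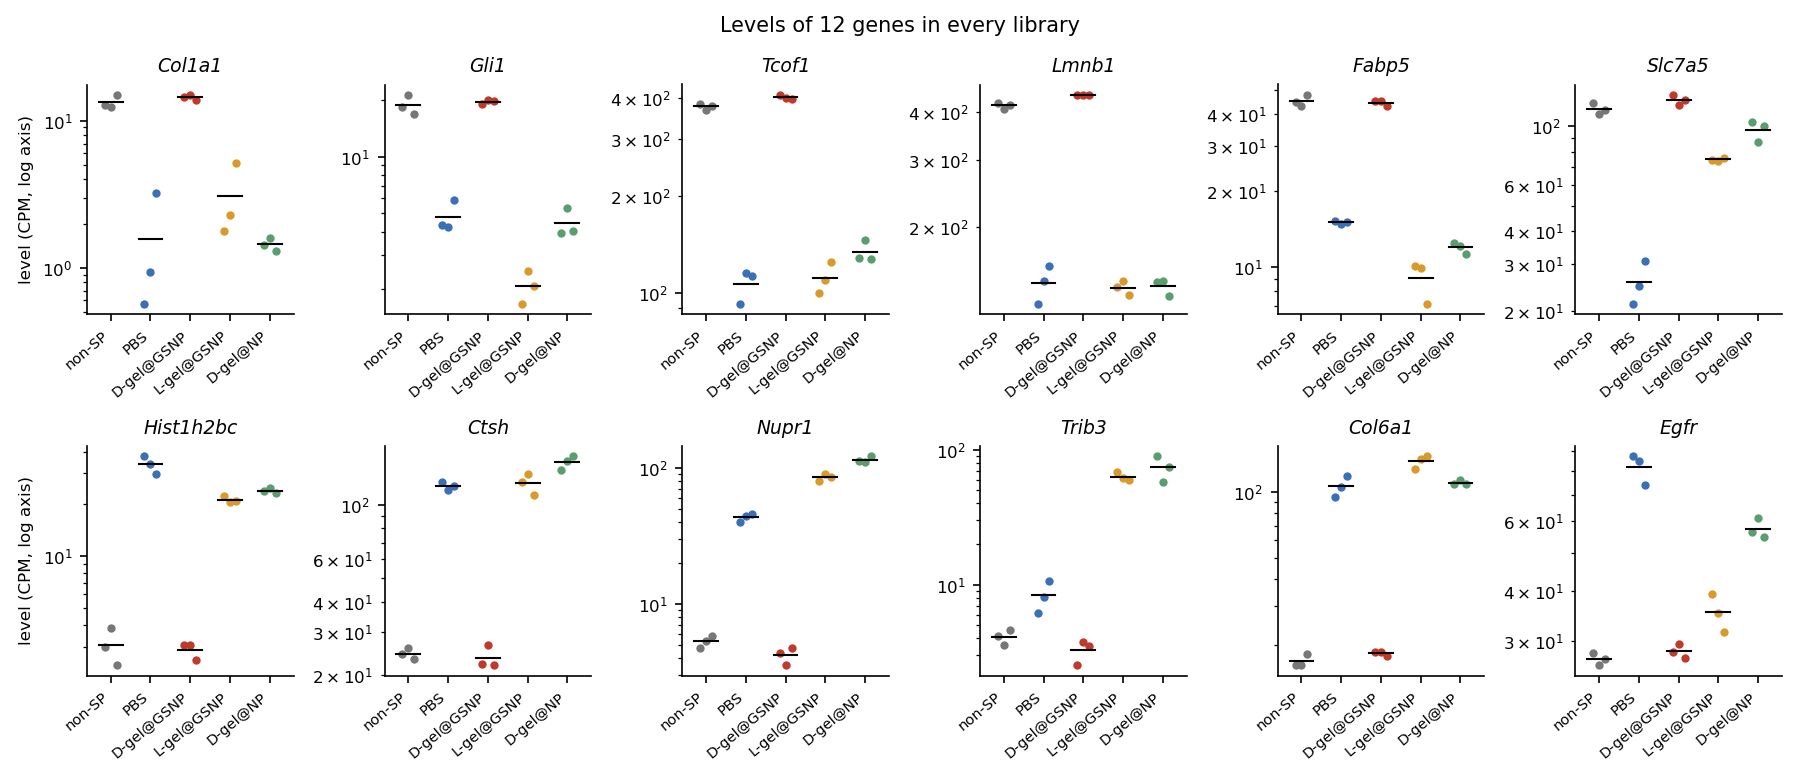
Level in CPM (log axis, own scale in each panel) of 12 genes in every library (dots; black lines are means of 3 libraries) of the 5 groups of samples. In each panel the 3 D-gel@GSNP libraries lie outside the range of the 3 PBS libraries and closer to the non-SP libraries than to them.

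Chaperones of the cytosol were mostly higher and those of the endoplasmic reticulum mostly lower. Of 14 heat shock genes 10 were higher and 3 lower (median 0.31): Hsp90ab1 was at 2860.1, 2909 and 2839 against 1758, 1887 and 1971 CPM (log2 difference 0.62, SE 0.05, adjusted p = 1.79e-10), the co-chaperone Bag3 rose 1.52-fold and the small heat shock protein gene Cryab fell 2.29-fold. Of 22 genes of the endoplasmic reticulum 2 were higher and 16 lower, where Xbp1, a factor of the unfolded protein response, fell 2.61-fold and the chaperone gene Hspa5 1.38-fold. Of 23 NRF2 and antioxidant genes 6 were higher and 12 lower. Ephx1, an epoxide hydrolase, had the largest fall in CPM among called genes outside the mitochondrial genome, with symbols of predicted genes left out. It was at 404, 400.1 and 373 CPM against 1419, 1352 and 1356 CPM (log2 difference -1.81, SE 0.04, adjusted p = 1.65e-18). Nqo1 fell 2.87-fold, and the thioredoxin reductase gene Txnrd1 rose 1.51-fold. Of 37 proteasome subunits 28 were higher and 4 lower (median 0.25).

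Of 16 hypoxia genes 2 were higher and 8 lower, and the direct tests gave more lower calls: 1 was higher and 14 lower in D-gel@GSNP than in L-gel@GSNP, and 2 were higher and 10 lower than in D-gel@NP. Vegfa, the angiogenic growth factor, was at 27.4, 36.5 and 28.7 CPM in D-gel@GSNP and 61.7, 70.7 and 70.4 CPM in PBS, with means of 239 CPM in L-gel@GSNP and 137 CPM in D-gel@NP. D-gel@GSNP was lowest of these 4 groups (log2 difference -1.13, SE 0.15, adjusted p = 8.48e-07 against PBS; log2 differences -2.95 and -2.14 against the gels, adjusted p = 1.74e-13 and 3.79e-11). Vegfa was not tested against non-SP, where the hypoxia list summed to 1130 ± 47.9 CPM, against 1120 ± 62.2 CPM in D-gel@GSNP. Ddit4, which restrains mTOR, and the collagen hydroxylase gene P4ha1 fell 2.84-fold and 2.21-fold. Hif1a mRNA was at 359 ± 10.6 against 358 ± 8.37 CPM (log2 difference 0.00, adjusted p = 0.963). Of 21 glycolysis genes 10 were higher and 2 lower (7 and 4 with upper-quartile scaling): Eno1 was at 1474, 1482 and 1395 against 1054, 1026 and 1025 CPM (log2 difference 0.49, SE 0.04, adjusted p = 1.10e-09) and Aldoa fell 1.23-fold. Of 13 iron genes 2 were higher and 8 lower; ceruloplasmin (Cp) was at 9.66, 8.45 and 10.9 against 34.1, 28.3 and 44.5 CPM (log2 difference -1.88, SE 0.13, adjusted p = 5.71e-11), the transferrin receptor gene Tfrc fell 1.38-fold and ferritin Fth1 rose 1.19-fold. The metallothionein gene Mt1 fell 2.15-fold.

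Clock genes and long non-coding RNAs were mostly lower. Of 18 clock genes 5 were higher and 11 lower: Dbp, a direct output of the clock, was at 4.82, 4.55 and 4.89 against 21.1, 19.4 and 17.3 CPM (log2 difference -2.02, SE 0.10, adjusted p = 2.64e-13), Per2 and Rora fell 3.16-fold and 3.23-fold, and Per1 rose 1.49-fold. Of 15 long non-coding RNAs 4 were higher and 10 lower. The list summed to 892 ± 65.1 CPM in D-gel@GSNP and 976 ± 43.3 CPM in PBS, with ranges that overlapped. Neat1, which builds nuclear paraspeckles, was at 2.93, 5.21 and 4.89 CPM against 21.6, 23.2 and 22.5 CPM (log2 difference -2.36, SE 0.14, adjusted p = 2.39e-12), and Malat1 fell 2.37-fold. Of 316 zinc finger genes 45 were higher and 170 lower (median -0.36), and of 227 solute carriers 45 were higher and 103 lower (median -0.27). Slc16a12, a monocarboxylate carrier, was at 5.73, 5.56 and 5.56 against 30.9, 28.0 and 29.8 CPM (log2 difference -2.40, SE 0.10, adjusted p = 1.45e-14). Zfp609 was at 119.9, 110.2 and 111 against 40.2, 51.5 and 58.9 CPM, a rise in a list of mostly falls (log2 difference 1.18, SE 0.10, adjusted p = 1.21e-09).

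Stem-like markers did not go one way. Of 28 listed genes 19 were tested and 6 were higher and 8 lower. Nes, the intermediate filament nestin, was low in all libraries, at 3.63, 3.26 and 3.24 CPM against 0.985, 0.883 and 1.85 CPM, and higher in D-gel@GSNP (log2 difference 1.45, SE 0.23, adjusted p = 1.14e-05). The integrin gene Itga6 was at 605, 615 and 617 against 402, 408 and 425 CPM (log2 difference 0.57, SE 0.05, adjusted p = 3.44e-10), and Id3 rose 1.495-fold. Cd24a and Sox4 fell 1.68-fold and 1.44-fold. Abcg2, the pump best known for the side population, was at 51.1, 47.9 and 50.9 CPM against 55.9, 54.7 and 52.4 CPM; the ranges did not overlap, but the difference missed the threshold (log2 difference -0.12, adjusted p = 0.0710; interval -0.24 to -0.01). Of 13 drug efflux pumps 1 was higher and 8 lower (median -0.38): Abcc2 was at 167, 178 and 178 against 348, 339 and 328 CPM (log2 difference -0.95, SE 0.05, adjusted p = 1.18e-13), Abcc5 and Abcb1b fell 1.52-fold and 1.34-fold, and Abcc4 rose 1.202-fold. In the direct tests 4 were higher and 6 lower in D-gel@GSNP than in L-gel@GSNP, and 4 were higher and 7 lower than in D-gel@NP. For all tested genes the shares were 30.5% higher and 31.3% lower against L-gel@GSNP, and 28.8% and 29.6% against D-gel@NP.

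The label of a glioma line was checked against markers of brain cells. Of 7 tested astrocyte markers 2 were higher and 3 lower (1 and 4 with upper-quartile factors). All 3 lower markers and 1 of the 2 higher ones changed at least 2-fold. The summed level of the list was 260 ± 6.6 CPM in D-gel@GSNP and 412 ± 12.4 CPM in PBS. Of 3 tested markers of the oligodendrocyte lineage 1 was higher and 1 lower, and of 2 tested neuron markers 0 were higher and 1 lower. Clu, a secreted chaperone that other cell types also make, held most of the astrocyte sum, at 144 ± 6.21 against 291 ± 9.59 CPM (log2 difference -1.01). Gfap, the filament of astrocytes, was at 0.303, 0.0562 and 0.184 against 0.259, 0.302 and 0.278 CPM, and Olig2, of the oligodendrocyte lineage, had no count in D-gel@GSNP. Keratins were present: Krt8 was at 753 ± 47.6 against 974 ± 43.8 CPM and Krt19 at 97.1 ± 7.39 against 198 ± 21.1 CPM, and both fell (log2 differences -0.37 and -1.03). The desmosome gene Dsp rose from 247 ± 16.3 to 339 ± 10.1 CPM (log2 difference 0.46). Of 18 epithelial genes 8 were higher and 7 lower, and of 8 mesenchymal genes 3 were higher and 3 lower; Snai1 rose 2.35-fold and Vim fell 1.18-fold.

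The 15 largest rises of genes that reached 5 CPM included, beside genes already described, Syt13, Arap3, Nup210, Rflnb, Pak6, Cyp2s1, Papss2 and Padi3. Syt13, a synaptotagmin, was at 5.52, 5.71 and 5.58 CPM against 0.934, 0.813 and 1.16 CPM and averaged 0.228 CPM in L-gel@GSNP and 0.502 CPM in D-gel@NP. Its level in D-gel@GSNP was above all 3 groups (log2 difference 2.53, SE 0.24, adjusted p = 8.41e-09; log2 differences 4.69 and 3.46 against the gels). Syt13 was not tested against non-SP. Nup210, a nuclear pore protein, rose 4.25-fold. Pak6, a kinase, rose 3.63-fold over PBS, but its difference from L-gel@GSNP did not pass the test (log2 difference 0.19, adjusted p = 0.305). Among the 15 largest falls, Frmpd4, a synaptic scaffold, was at 0.186, 0.150 and 0.184 CPM against 5.81, 6.58 and 5.11 CPM (log2 difference -5.06, SE 0.23, adjusted p = 4.64e-14). Gda, guanine deaminase, was at 0.792, 0.993 and 1.36 against 17.2, 15.6 and 14.9 CPM, and Slc1a2, a glutamate carrier of astrocytes, at 1.44, 1.91 and 1.22 against 22.5, 21.96 and 29.004 CPM. Both were lower than in PBS without overlap, 15.2-fold and 15.9-fold, and lower than in both other gels (log2 differences -5.53 and -4.52 for Gda; -2.62 and -3.77 for Slc1a2). Ifi207, an interferon-induced gene, was at 0.233, 0.337 and 0.276 against 6.72, 6.48 and 4.45 CPM, and its difference from L-gel@GSNP did not pass the test (log2 difference -0.39, adjusted p = 0.373).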

How the data were processed

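Total RNA was extracted with TRIzol and sequenced as paired-end libraries, per the labels' protocols. Reads were trimmed with fastp 0.22.0, aligned to GRCm39 with HISAT2 2.1.0 and counted per gene with featureCounts, and DESeq2 is also named, per the submitters' processing notes. The authors deposited raw counts for 34259 genes and FPKM values, which are scaled for gene length and depth. The strand setting, and whether poly(A) RNA was selected, are not given in the sources used here. Gene symbols were taken from GENCODE M21 by gene ID, for 32434 IDs; 1825 had none.

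The main tests used the counts; FPKM values were used in the limma alternatives alone. Genes passed edgeR 4.0.16's filterByExpr by group, libraries were scaled by TMM factors, and group means of all 15 libraries were fitted with the quasi-likelihood test in R 4.3.3. The contrasts were D-gel@GSNP minus PBS and, as a direct check, minus L-gel@GSNP and minus D-gel@NP, each with Benjamini-Hochberg adjustment over all 17497 tested genes. Intervals are 95% intervals of the fitted difference and cover these libraries only. The code was tested on simulated counts. CPM sums over a list include its members too low to be tested.

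The members and the 69 gene lists (2282 genes in the table) were chosen with earlier results of these data known. Genes were named by 3 rules: the 15 largest rises and falls by log2 difference among genes that reached 5 CPM and did not overlap, the 12 largest by CPM difference, and in each list its marked genes and its 3 largest rises and falls. The text gives a part of them. Symbols of predicted genes were left out of the first pair of rules.

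Tried as alternatives were other scaling (RLE, upper-quartile), other filters (none, or 1 CPM in 3 libraries), DESeq2 1.42.0, fitting the 6 libraries alone, a replicate block, limma 3.58.1 on log2 (FPKM + 1) or (FPKM + 0.1), and leaving out each replicate. Leaving out the shallowest library or the mitochondrial genes was chosen after seeing the data. Promoters (RefSeq, GRCm38.p6) and stem-loops (GENCODE M21, GRCm38) were read by gene name, since the files' build differs, and no coordinates were carried between builds. Some genes are not reported here.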

Additional observations from a re-analysis of the deposited data

How the results depend on the processing

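The numbers of genes higher and lower stayed within 1.5 times 4802 and 4819 under every alternative run. Leaving out 1 replicate of either group gave 4485 to 4631 higher and 4366 to 4625 lower. Changes of at least 2-fold depended on the unit: 584 higher became 115, 276 and 115, and 1638 lower became 415, 792 and 414, with limma on log2 (FPKM + 1), on log2 (FPKM + 0.1) and on log2 (FPKM + 1) without a filter; a pseudocount shrinks the differences of low genes by construction. Upper-quartile factors gave 4066 higher and 5561 lower and moved the median of all genes to -0.10 against PBS, -0.18 against L-gel@GSNP and -0.16 against D-gel@NP. Of the results on single genes 8845 kept their call or stayed without one, 55 gained and 206 lost it, and no gene called in both settings turned. Some genes without a call changed sign when 1 library was left out. Lists with medians near 0 (cytokine receptors, matrix, TGF-beta, epithelial and others) changed the sign of their median in some settings.

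Replicate numbers did not pair the libraries: deviations from the group means of D-gel@GSNP and PBS libraries with the same number had correlations of 0.00584, 0.0158 and -0.0285 across genes. With the replicate number as a block the calls numbered 4815 up and 4774 down, with 580 and 1601 at 2-fold or more.

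Genes under 1 CPM rest on few counts; of those called, 207 of 249 higher and 821 of 878 lower differed at least 2-fold. The D-gel@GSNP libraries resemble the non-SP libraries under each library's label as given, and no alternative here bears on whether a label is wrong. Histone genes, read in part by poly(A) methods, and near-identical gene copies are uncertain.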
